A study of Homo sapiens with 6 samples.

Results

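The genes described here are a set of 10 genes of smooth muscle and of the actin and myosin machinery that lets cells contract: ACTA2, TAGLN, CNN1, CNN2, TPM1, TPM2, CALD1, ACTN1, MYL9 and MYLK. They were chosen by name, as the rows of the deposited count table that carry these symbols, and each symbol matched 1 of its 58735 genes. RNA-Seq was performed on MCF10A, an established nonmalignant human breast epithelial cell line, 48 hours after transfection. The siControl group (n = 3 libraries) received a nontargeting control pool of siRNA, and the siDAB2IP group (n = 3 libraries) received siRNA against DAB2IP, the gene of a Ras GTPase-activating protein. All cells grew in DMEM/F12 medium with horse serum, insulin, epidermal growth factor, cholera toxin and hydrocortisone, all were treated with a transfection reagent, and no untransfected cells are part of the comparison. 1 siRNA reagent against DAB2IP was used, so effects of the knockdown and of the reagent on other transcripts cannot be told apart. The labels do not state whether the replicates were separate cultures, so p-values measure the spread between these libraries, which may be technical.

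Contraction of smooth muscle is controlled from the myosin side. Calcium-bound calmodulin activates the kinase encoded by MYLK, which phosphorylates the regulatory light chain of myosin II (MYL9), and a myosin phosphatase, inhibited through RhoA and its kinases, removes the phosphate. Actin filaments carry tropomyosin (TPM1 and TPM2), caldesmon (CALD1), calponin (CNN1 and CNN2) and transgelin (TAGLN), and alpha-actinin (ACTN1) crosslinks them. Many of these genes hold a CArG box, the DNA element bound by serum response factor (SRF), whose coactivators are myocardin and the myocardin-related transcription factors. Basal (myoepithelial) cells of the mammary gland use much of this machinery, and spread epithelial cells in culture use the nonmuscle forms in stress fibers.

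The starts of these genes are shown first, because SRF binds near many of them. RefSeq promoter sequences (GRCh38.p14) were matched by symbol for 8 of the 10 genes, with TAGLN and MYL9 not matched, and gave 16 windows, each the 250 bases before a transcription start. The CArG box was searched by its name's standard form, CC and GG around 6 letters that are A or T, which reads as the same form on the other strand. It occurred in 3 of these 16 windows, of CNN2, ACTN1 and MYLK, against 1.16% of all 35116 windows. With at least 5 of the 6 inner letters A or T, the looser form occurred in 5 windows of 5 genes, against 7.04% of all windows. The windows with the strict form are counted among them. Of these, the ACTA2 window held it at 2 places and a CALD1 window not printed here held it at 26 bases before the start. The MCAT motif of the TEAD factors, CATTCC or GGAATG on the other strand, occurred in 4 windows, of ACTA2, CALD1 (2 windows) and ACTN1, against 11.9% of all windows, and it overlapped no CArG match. A match is a description of the letters and was not tested for binding. The windows below are those with a strict CArG match or an MCAT match, on the strand of the gene, and capitals mark the strict and looser CArG forms and the MCAT motif.
ACTA2 (chr10:88952774-88953023, minus strand, MCAT at 183 and looser CArG at 121 and 71 bases before the start): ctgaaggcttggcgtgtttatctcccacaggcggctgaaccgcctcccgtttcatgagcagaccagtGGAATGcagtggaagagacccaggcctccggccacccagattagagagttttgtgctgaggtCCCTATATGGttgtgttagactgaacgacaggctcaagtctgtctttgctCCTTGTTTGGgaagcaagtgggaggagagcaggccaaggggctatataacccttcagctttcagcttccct
CNN2 (chr19:1026358-1026607, plus strand, CArG at 89 bases before the start): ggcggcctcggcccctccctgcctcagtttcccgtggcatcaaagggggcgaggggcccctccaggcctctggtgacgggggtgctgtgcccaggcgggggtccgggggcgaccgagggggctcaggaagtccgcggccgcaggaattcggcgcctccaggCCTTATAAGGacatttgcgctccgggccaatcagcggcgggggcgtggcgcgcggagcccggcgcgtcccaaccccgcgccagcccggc
ACTN1 (chr14:68977567-68977816, minus strand, CArG at 171 and MCAT at 154 bases before the start): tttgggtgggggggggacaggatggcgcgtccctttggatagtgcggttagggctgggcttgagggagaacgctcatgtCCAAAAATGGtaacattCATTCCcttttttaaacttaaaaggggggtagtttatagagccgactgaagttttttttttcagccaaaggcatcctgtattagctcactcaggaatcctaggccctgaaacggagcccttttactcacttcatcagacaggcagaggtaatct
MYLK (chr3:123620549-123620798, minus strand, CArG at 94 bases before the start): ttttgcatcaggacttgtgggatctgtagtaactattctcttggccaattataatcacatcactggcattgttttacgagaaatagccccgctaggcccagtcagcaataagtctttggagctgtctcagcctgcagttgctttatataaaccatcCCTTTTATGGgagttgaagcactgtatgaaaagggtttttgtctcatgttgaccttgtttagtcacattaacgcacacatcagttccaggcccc
CALD1, first window (chr7:134779384-134779633, plus strand, MCAT at 194 bases before the start): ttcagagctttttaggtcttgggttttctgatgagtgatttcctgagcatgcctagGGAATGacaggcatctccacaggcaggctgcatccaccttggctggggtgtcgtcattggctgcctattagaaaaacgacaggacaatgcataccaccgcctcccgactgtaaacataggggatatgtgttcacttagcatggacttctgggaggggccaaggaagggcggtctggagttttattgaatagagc
CALD1, second window (chr7:134745217-134745466, plus strand, MCAT at 42 bases before the start): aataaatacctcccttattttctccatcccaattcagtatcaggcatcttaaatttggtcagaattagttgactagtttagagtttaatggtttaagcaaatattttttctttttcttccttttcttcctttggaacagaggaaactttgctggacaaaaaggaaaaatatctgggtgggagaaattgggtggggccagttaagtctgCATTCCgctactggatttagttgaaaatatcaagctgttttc
The MYLK window belongs to a start that lies 10499 bases before the 3′ end of the gene, 263783 bases after its 5′ end, and the ACTA2 window to one that lies 38566 bases after the 5′ end. The 3′ end of MYLK is known to encode telokin, a short myosin-binding protein, from a start of its own. The first CALD1 window belongs to a start 35382 bases after the 5′ end of CALD1. The CALD1 window not printed belongs to a start at −32753 bases from that end, outside the gene as counted. Counts are per gene, so they do not show which start was used.

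Each library held between 16353783 and 21916062 counts. Levels are given as CPM (counts scaled to the library's total) after TMM scaling, the default between-library scaling of edgeR, and a count of 0 allows up to 3 counts, or 0.139 to 0.187 CPM, an upper limit that covers counting error only. Differences were tested with edgeR's quasi-likelihood test on the counts of the 15430 genes that passed its filter on low counts, and a gene with a Benjamini-Hochberg adjusted p under 0.05 was called. The common biological coefficient of variation was 14.8%. DAB2IP itself (chr9:121567057-121785530, plus strand) was at 103, 94.2 and 77.4 CPM in the siControl libraries and at 27.5, 25.6 and 22.4 CPM in the siDAB2IP libraries, with a difference of −1.86 on the log2 scale (SE 0.13, edgeR adjusted p = 9.71e-05).

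Of the 10 contractility genes, 9 passed the filter, and 1 of them rose and 1 fell with DAB2IP knockdown. MYLK rose and CALD1 fell, and 7 missed the threshold. CNN1 was not tested because it had almost no counts. In the same fit, 6.55% of all genes tested rose and 7.65% fell, so 1 of 9 in each direction is near the background. ACTA2, ACTN1 and MYLK were higher in every siDAB2IP library than in any siControl library, which held for 17.6% of all genes tested, and CALD1 was lower in every siDAB2IP library, which held for 18.3%. Together these are 4 of the 9 genes, against 35.9% of all genes tested. The median log2 fold change of the 9 genes was −0.04, and that of all genes tested was 0.01. These are totals over the cells of each culture, in which fewer cells of a type and less RNA per cell cannot be told apart.

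**Figure D1:**
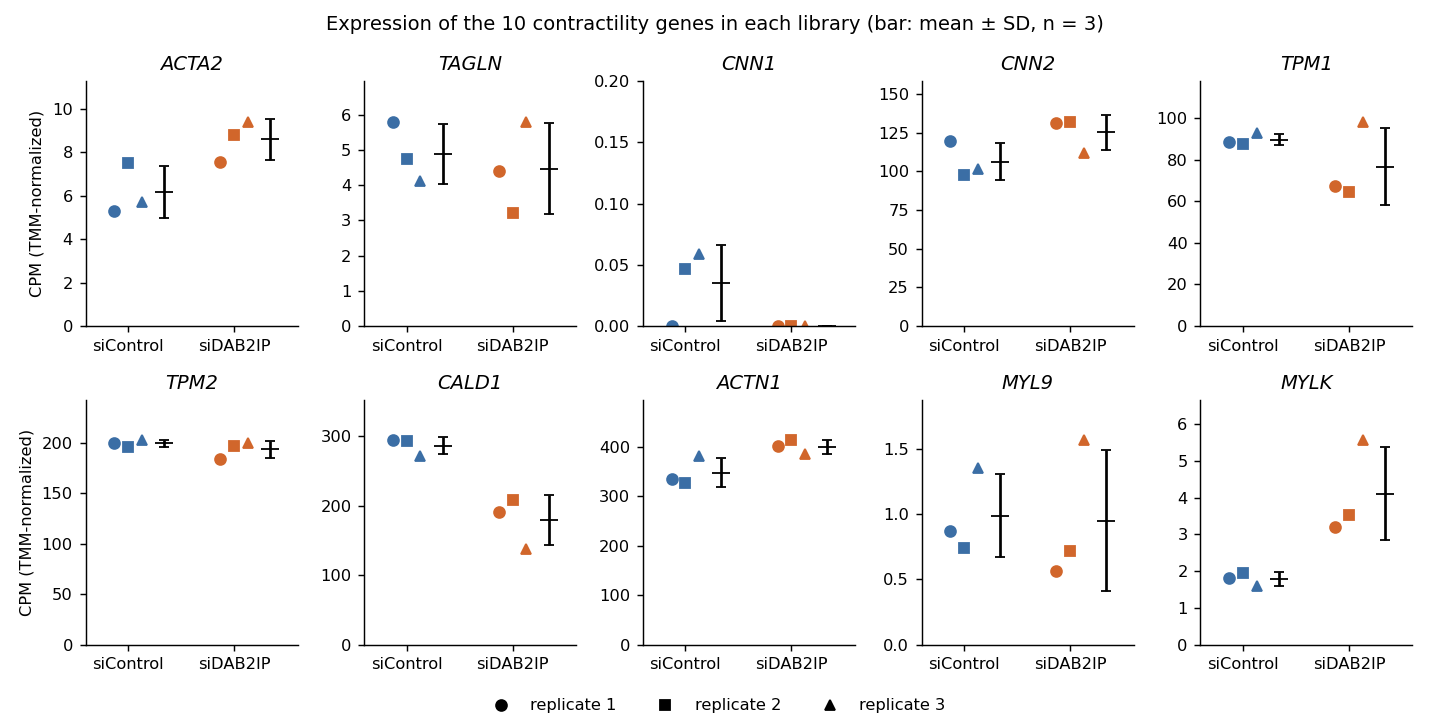
Level of each of the 10 contractility genes in each library, in TMM-scaled CPM (y axis, starting at 0, 1 panel a gene), for siControl and siDAB2IP, with a line at each group's mean and a bar of 1 SD (n = 3). The siDAB2IP points of MYLK lie above, and those of CALD1 below, all siControl points, while CNN1 has at most 1 count in any library.

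Per length, the levels of these genes spanned a wide range. The deposited FPKM values divide counts by gene length, which for the 10 genes equals all annotated exon bases. The order of the genes therefore depends on these lengths. TPM2 had the highest level in siControl cells (60.8 ± 0.878 FPKM, SD, n = 3). ACTN1, CNN2 and CALD1 followed at 32.4 ± 2.70, 28.9 ± 3.20 and 28.9 ± 1.28 FPKM, and the libraries of neighbors in that order overlapped. TPM1 was at 6.90 ± 0.201, ACTA2 at 2.06 ± 0.401, TAGLN at 1.23 ± 0.214 and MYL9 at 0.347 ± 0.112 FPKM, each below its predecessor in every siControl library. MYLK was at 0.0796 ± 0.00837 FPKM and CNN1 at 0.0120 ± 0.0106 FPKM. In siDAB2IP cells the order of the means was the same, with TPM2 at 58.9 ± 2.44 and ACTN1 at 37.2 ± 1.29 FPKM. CNN2 at 34.0 ± 3.12 FPKM met ACTN1, since the highest CNN2 library and the lowest ACTN1 library were both at 35.8 FPKM. CALD1, at 18.0 ± 3.67 FPKM, was below CNN2 in every siDAB2IP library. MYL9 (0.333 ± 0.188 FPKM) and MYLK (0.183 ± 0.0566 FPKM) overlapped. Their gene lengths are 2821 and 22167 bases. In mean CPM, MYL9 was below MYLK, at 0.989 against 1.78 in siControl and 0.950 against 4.11 in siDAB2IP cells.

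**Figure D2:**
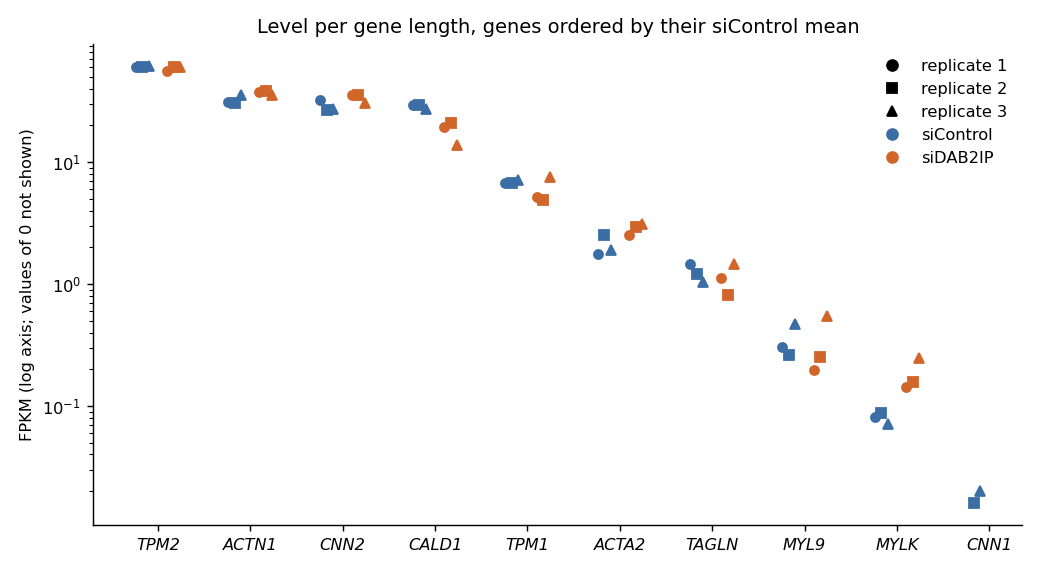
Deposited FPKM of the contractility genes in each library on a log axis, ordered by level, for siControl and siDAB2IP. TPM2 lies at 56.1 to 61.7 FPKM in all 6 libraries, and MYLK below 0.25 FPKM.

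ACTA2, TAGLN and CNN1, thin-filament genes known as smooth muscle markers, were weakly expressed, CNN1 hardly at all. ACTA2, which encodes smooth muscle alpha-actin (ENSG00000107796, chr10:88935074-88991339, minus strand), had 85, 162 and 97 counts in siControl replicates 1, 2 and 3 and 134, 159 and 162 in siDAB2IP replicates 1, 2 and 3, or 5.30, 7.52 and 5.70 and 7.56, 8.81 and 9.39 CPM. Every siDAB2IP library was above every siControl library, but the highest siControl and the lowest siDAB2IP library were at nearly the same level. Its log2 fold change was 0.47 (SE 0.19, 95% interval 0.04 to 0.89), which did not pass the threshold (edgeR adjusted p = 0.129), and without siDAB2IP replicate 3 it was 0.40. ACTA2 shares 380 exon bases, 12.8% of its exons, with FAS and 516 (17.3%) with ACTA2-AS1, both on the opposite strand. FAS had a mean of 106.9 CPM and ACTA2-AS1 one of 0.14 CPM. Counting by strand is not stated, so whether reads in these bases were counted for ACTA2, for FAS or for neither is not known. STAMBPL1 (11.5 CPM) also lies across ACTA2 but shares no exon bases. Of all 100-base windows of ACTA2 transcripts, 19.2% also occur in FAS or ACTA2-AS1 and none in another actin.

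TAGLN, which encodes transgelin, an actin-bundling protein of smooth muscle (ENSG00000149591, chr11:117199321-117204782, plus strand), was at 5.79, 4.74 and 4.11 CPM in siControl replicates 1, 2 and 3 and 4.4, 3.21 and 5.80 CPM in siDAB2IP replicates 1, 2 and 3. The groups overlapped, and both the lowest and the highest library were siDAB2IP libraries. The log2 fold change was −0.13 (SE 0.25, 95% interval −0.69 to 0.44, edgeR adjusted p = 0.787), which was −0.36 without siDAB2IP replicate 3 and turned to 0.064 without siDAB2IP replicate 2. TAGLN shares 446 exon bases (11.4%) with PCSK7 on the opposite strand, which had a mean of 94.4 CPM. CNN1, the smooth muscle calponin (ENSG00000130176, chr19:11538717-11550323, plus strand), had 0, 1 and 1 counts in the siControl and 0, 0 and 0 in the siDAB2IP libraries, at or below the limit that a count of 0 allows, so no fold is given.

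The other thin-filament genes had higher levels, and 1 of them, CALD1, fell. CALD1 encodes caldesmon, which binds actin and calmodulin and restrains the myosin ATPase (ENSG00000122786, chr7:134744252-134970728, plus strand). It was at 294, 293 and 272 CPM in siControl replicates 1, 2 and 3 and 191, 208 and 138 CPM in siDAB2IP replicates 1, 2 and 3. All siDAB2IP libraries lay well below all siControl libraries, replicate 3 lowest. The group means were 287 ± 12.4 and 179 ± 36.5 CPM (SD, n = 3), and the log2 fold change was −0.68 (SE 0.14, 95% interval −1.0 to −0.35, edgeR adjusted p = 0.0148). It overlaps no other gene, and none of its 100-base windows occurs elsewhere among the annotated transcripts. Without siDAB2IP replicate 3 the log2 fold change was −0.52 (edgeR adjusted p = 0.0038), and without siControl replicate 2 it was −0.68 but did not pass (edgeR adjusted p = 0.0547).

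The tropomyosin genes TPM1 and TPM2 encode the coiled-coil proteins that run along actin filaments and gate access to myosin. TPM1 (ENSG00000140416, chr15:63042632-63071915, plus strand) was at 88.5, 87.7 and 92.8 CPM in siControl replicates 1, 2 and 3 and 67.5, 64.3 and 98.2 CPM in siDAB2IP replicates 1, 2 and 3. SiDAB2IP replicates 1 and 2 were below every siControl library, and replicate 3 was above them all. Over all libraries the log2 fold change was −0.23 (SE 0.15, 95% interval −0.56 to 0.11, edgeR adjusted p = 0.351), and without siDAB2IP replicate 3 it was −0.44 (edgeR adjusted p = 0.00717). TPM1 shares 2070 exon bases (16.1%) with TPM1-AS on the opposite strand, at a mean of 0.598 CPM. TPM2 (ENSG00000198467, chr9:35681992-35690121, minus strand) was at 199.8, 196 and 202 CPM in siControl replicates 1, 2 and 3 and 184, 197 and 199 CPM in siDAB2IP replicates 1, 2 and 3. Its groups overlapped, with a log2 fold change of −0.04 (SE 0.09, 95% interval −0.25 to 0.16), the narrowest interval of the 9 genes.

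CNN2, a calponin of nonmuscle cells that binds actin (ENSG00000064666, chr19:1026581-1039068, plus strand), was at 119.8, 97.5 and 101 CPM in siControl replicates 1, 2 and 3 and 131, 132 and 112 CPM in siDAB2IP replicates 1, 2 and 3. SiControl replicate 1 lay among the siDAB2IP libraries, and the other siControl libraries lay below them. The log2 fold change was 0.24 (SE 0.11, 95% interval −0.02 to 0.49, edgeR adjusted p = 0.194). ACTN1, a nonmuscle alpha-actinin of stress fibers and focal adhesions (ENSG00000072110, chr14:68874143-68979440, minus strand), was at 334, 326 and 381 CPM in siControl replicates 1, 2 and 3 and 401, 412 and 385 CPM in siDAB2IP replicates 1, 2 and 3. Every siDAB2IP library was above every siControl library, by little in the case of siControl replicate 3. The log2 fold change was 0.20 (SE 0.11, 95% interval −0.03 to 0.44, edgeR adjusted p = 0.229).

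On the myosin side, MYLK rose and MYL9 did not pass the threshold. MYLK, the light chain kinase gene (ENSG00000065534, chr3:123610049-123884331, minus strand), had 29, 42 and 27 counts in the siControl and 57, 64 and 96 in the siDAB2IP libraries, or 1.81, 1.95 and 1.59 and 3.22, 3.54 and 5.57 CPM. All siDAB2IP libraries were above all siControl libraries, and replicate 3 was the highest. The means were 1.78 ± 0.184 and 4.11 ± 1.27 CPM (SD, n = 3), and the log2 fold change was 1.2 (SE 0.28, 95% interval 0.58 to 1.82, edgeR adjusted p = 0.0206). At these low counts the call was lost when any 1 siControl library was left out (adjusted p = 0.0707, 0.0749 and 0.0816 from edgeR), with log2 fold changes of 1.19, 1.26 and 1.11. Without siDAB2IP replicate 3 it was 0.92 (edgeR adjusted p = 0.0355). Without both replicate 3 libraries, a choice made after seeing the data, it was 0.84 (edgeR adjusted p = 0.0734). MYLK shares 133 exon bases (0.6%) with MYLK-AS1 on the opposite strand, at a mean of 0.636 CPM.

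MYL9, the regulatory light chain of smooth muscle myosin (ENSG00000101335, chr20:36541484-36551447, plus strand), had 14, 16 and 23 counts in the siControl and 10, 13 and 27 in the siDAB2IP libraries. In both groups replicate 3 was the highest, and the groups overlapped. The log2 fold change was −0.05 (SE 0.46, 95% interval −1.07 to 0.96, edgeR adjusted p = 0.956), an interval that reaches far in both directions. Its sign turned without siControl replicate 3 (0.22), siDAB2IP replicate 1 (0.21) or siDAB2IP replicate 2 (0.11).

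SiDAB2IP replicate 3 was extreme for more of these genes than any other library, as it was for all genes tested. It was the highest library for 5 of the 9 genes tested (ACTA2, TAGLN, TPM1, MYL9 and MYLK) and the lowest for 1 (CALD1), so that it was extreme for 6 of 9, against 52.3% of all genes tested. Each other library was extreme for 2 genes, except siDAB2IP replicate 2 with 4, and over all genes tested the other libraries were extreme for 24.1% to 35.1%. The labels give both groups replicate numbers but do not say what the numbers stand for. Libraries of the same number deviated together across genes, though weakly (correlations of 0.15 to 0.26). Within pairs of the same number, siDAB2IP was higher for 4 of the 9 genes in pair 1, 5 in pair 2 and 7 in pair 3. ACTA2, CNN2, ACTN1 and MYLK were higher in all 3 pairs and CALD1 lower, which makes 5 of 9 genes of 1 sign, against 56.2% of all genes tested. For ACTA2 the log2 differences in pairs 1, 2 and 3 were 0.50, 0.22 and 0.71, for MYLK 0.79, 0.83 and 1.74 and for CALD1 −0.62, −0.49 and −0.98. The differences of MYLK and CALD1 were largest in pair 3. TAGLN (−0.39, −0.54 and 0.49) and TPM1 (−0.39, −0.45 and 0.08) were lower in pairs 1 and 2 and higher in pair 3.

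**Figure D3:**
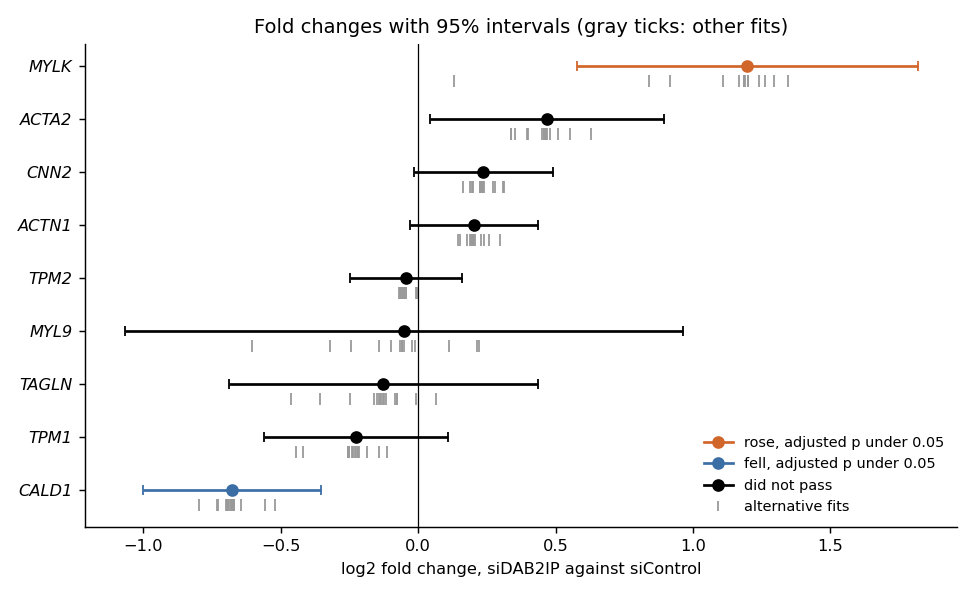
Log2 fold change (siDAB2IP over siControl) of the 9 contractility genes tested, on the x axis, as points with bars for the 95% intervals from edgeR and gray ticks for the values in the alternative fits. Only the intervals of ACTA2, CALD1 and MYLK exclude 0, and of these CALD1 and MYLK passed the adjusted threshold.

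Each gene was also set beside its paralogs, as its share of the group's summed FPKM. These shares rest on the deposited gene lengths, all annotated exon bases for the 10 genes, and are not shares of transcripts. Shares were compared with two-sided exact permutation tests over the 3 and 3 libraries, for which p cannot go below 0.1, with adjustment over the 9 genes. Among actins, ACTB and ACTG1, the cytoplasmic forms, made up nearly all of the FPKM, and ACTA2 held 0.229%, 0.317% and 0.247% in the siControl and 0.386%, 0.394% and 0.553% in the siDAB2IP libraries. Its share was above in every siDAB2IP library (exact permutation test, p = 0.1, adjusted p = 0.45). ACTB was at 57.8% ± 3.91 and 62.9% ± 0.468 of actin FPKM (SD, n = 3 in each group), and ACTG1 at 41.9% ± 3.88 and 36.7% ± 0.600. Neither passed the threshold on the counts (ACTB log2 fold change −0.12, ACTG1 −0.44 with edgeR adjusted p = 0.0659). ACTG2, the other smooth muscle actin, had 1 count in 1 library and 0 in the rest, and the striated muscle actins had at most 13 (ACTA1) and 1 (ACTC1).

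Among calponins, CNN2 held 82.2%, 76.6% and 82.4% in the siControl and 86.6%, 85.3% and 87.0% in the siDAB2IP libraries, above in every siDAB2IP library (exact permutation test, p = 0.1, adjusted p = 0.45). CNN3, which made up nearly all of the remainder, had a log2 fold change of −0.37 (edgeR adjusted p = 0.161). TAGLN held 0.880% ± 0.0501 and 0.978% ± 0.452 of transgelin FPKM (SD, n = 3) and TAGLN2 nearly all of the rest. TPM2 held 56.6% ± 0.699 and 56.7% ± 1.57 of tropomyosin FPKM, TPM1 6.42% ± 0.165 and 5.68% ± 1.40, and TPM3 and TPM4 shared the remainder. ACTN1 held 26.0% ± 0.897 and 25.8% ± 1.29 of alpha-actinin FPKM against 74.0% ± 0.922 and 74.2% ± 1.30 for ACTN4. In siControl cells ACTN1 and ACTN4 were at means of 347 and 569 CPM, with gene lengths of 10626 and 6098 bases. MYL9 held 0.430% ± 0.181 and 0.376% ± 0.251 of regulatory light chain FPKM, so that MYL12A and MYL12B, the nonmuscle forms, made up nearly all of it. MYLK held 5.70%, 12.0% and 10.2% of light chain kinase FPKM in the siControl and 11.1%, 28.6% and 30.0% in the siDAB2IP libraries, which overlapped (exact permutation test, p = 0.2, adjusted p = 0.6). MYLK4 held most of the rest, at 0.813 ± 0.380 and 0.681 ± 0.364 FPKM. The gene lengths of MYLK and MYLK4 are 22167 and 6059 bases. In mean CPM, MYLK was at 1.78 and MYLK4 at 4.97 in siControl cells, and at 4.11 and 4.17 in siDAB2IP cells. None of the 10 paralogs tested passed the threshold of edgeR. DESeq2 called 1 of the 10, ACTG1.

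**Figure D4:**
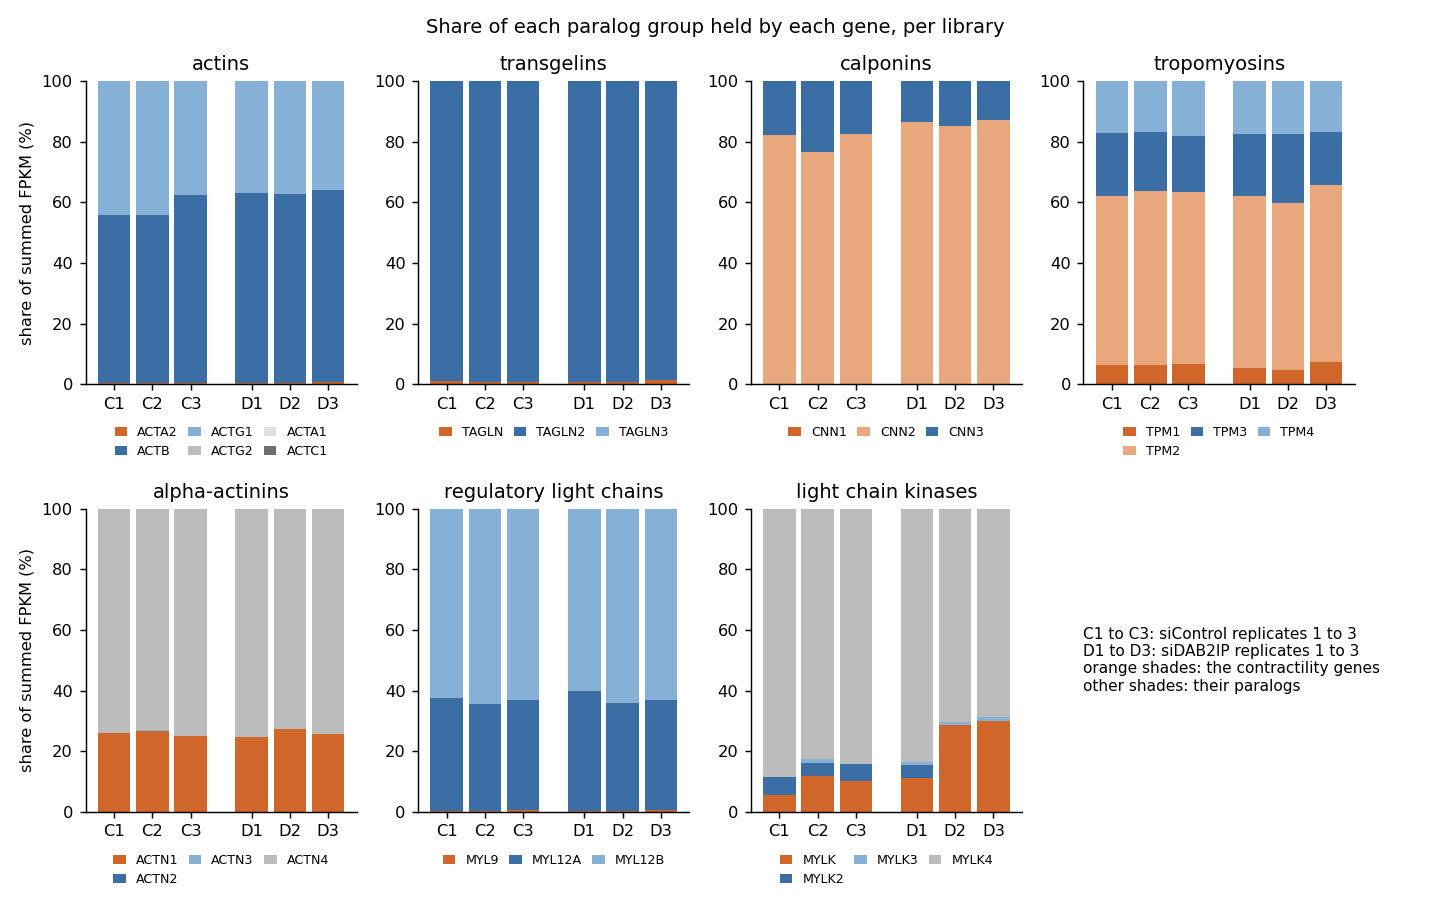
Share of each paralog group's summed FPKM (y axis, percent) held by each gene in each library (C1 to C3, siControl replicates and D1 to D3, siDAB2IP replicates), with the contractility genes in orange shades. ACTA2, TAGLN and MYL9 are slivers of under 2% in every library, and CNN2 reaches 85.3% to 87.0% in the siDAB2IP libraries.

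The wider actomyosin pathway was described with a list of 103 further genes, of which 85 were tested. Of these, 8 rose and 11 fell, or 9.41% and 12.9%, against 6.55% and 7.65% of all genes tested, and the median log2 fold change was 0.02. Among the 6 heavy and essential light chain genes of myosin II, 0 rose and 1 fell, in edgeR and in DESeq2. MYH14 (0.64 on the log2 scale, edgeR adjusted p = 0.0919) and MYL6B (0.39, edgeR adjusted p = 0.0926) did not pass the threshold. MYH14 passed it with the replicate number as a block. MYH10, the heavy chain of nonmuscle myosin IIB, fell from 125 ± 17.1 to 93.0 ± 8.58 CPM (log2 fold change −0.43, edgeR adjusted p = 0.0425), a call kept in 2 of the 6 fits on 5 libraries. MYH9, the heavy chain of myosin IIA, had a log2 fold change of −0.14, and MYH11, the smooth muscle heavy chain, was at 1.30 ± 0.518 and 1.39 ± 0.553 CPM. Of the 6 myosin phosphatase and inhibitor genes tested, edgeR and DESeq2 called 0. PPP1R12A, the myosin-targeting subunit, had a log2 fold change of −0.31 (edgeR adjusted p = 0.152). PPP1R14B, an inhibitor, had one of −0.27 (edgeR adjusted p = 0.0979).

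Of the 23 small GTPase, associated kinase and calmodulin genes tested, 2 rose and 5 fell. RHOC, a small GTPase, rose from 52.1 ± 5.44 to 73.6 ± 0.604 CPM (log2 fold change 0.50, edgeR adjusted p = 0.0121), and CDC42BPG, a myotonic dystrophy kinase-related kinase, had a log2 fold change of 0.47 (edgeR adjusted p = 0.0120). ROCK2, a RhoA-activated kinase that phosphorylates the myosin phosphatase, fell from 74.0 ± 8.44 to 53.8 ± 2.63 CPM (log2 fold change −0.46, edgeR adjusted p = 0.0207). Its call was kept in 3 of the 6 fits on 5 libraries. DAPK2, a calmodulin-dependent death-associated kinase, changed most of these, from 29 ± 9.05 to 8.92 ± 3.70 CPM (log2 fold change −1.70, SE 0.32, edgeR adjusted p = 0.00862). CALM2, a calmodulin gene, fell as well (−0.47). CIT (−1.28), the citron kinase, and ECT2 (−0.66), a guanine nucleotide exchange factor, passed as well, and both are known for their part in cytokinesis. The call of CIT was lost in DESeq2 (adjusted p = 0.111), which called 2 genes of this group up and 4 down, and it was kept in 2 of the 6 fits on 5 libraries. Without both replicate 3 libraries its log2 fold change was −0.77 (edgeR adjusted p = 0.00267). ECT2 kept its call in 3 of the 6 fits on 5 libraries, and without both replicate 3 libraries it was at −0.36 (edgeR adjusted p = 0.0634). SRF was at 45.0 ± 3.62 and 44.7 ± 2.62 CPM (log2 fold change −0.01, 95% interval −0.24 to 0.22). Its coactivators MRTFA (0.33, adjusted p = 0.0583) and MRTFB (−0.33, adjusted p = 0.112, both from edgeR) did not pass the threshold. The groups did not overlap for either, which held for 35.9% of all genes tested. MYOCD, the gene of myocardin, had 0 counts in every library.

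Of the 37 stress fiber and focal adhesion genes tested, 6 rose and 5 fell. SMTN, which encodes smoothelin, an actin-binding protein of contractile smooth muscle, was at 45.3, 46.3 and 58.1 CPM in siControl replicates 1, 2 and 3 and 74.3, 105 and 95 CPM in siDAB2IP replicates 1, 2 and 3, higher in every siDAB2IP library (log2 fold change 0.88, SE 0.15, edgeR adjusted p = 0.00531). LIMA1 (EPLIN, 0.55), PXN (paxillin, 0.50), SSH1 (a cofilin phosphatase, 0.44) and FBLIM1 (a LIM protein of focal adhesions, 0.44) were among those that rose, with values on the log2 scale. CSRP1, a LIM protein that binds alpha-actinin and is abundant in smooth muscle, was at 103, 93.3 and 100.2 CPM in siControl replicates 1, 2 and 3 and 63.1, 62.3 and 50.6 CPM in siDAB2IP replicates 1, 2 and 3, lower in every siDAB2IP library (log2 fold change −0.75, SE 0.11, edgeR adjusted p = 0.00309). AFAP1 (−0.66), an actin filament-associated protein, CAVIN1 (−0.49), a caveolar coat protein, PDLIM4 (−0.48), which binds alpha-actinin, and CORO1C (−0.29), a coronin, also fell. CAV1, another caveolar gene, went the other way from CAVIN1 (0.60, edgeR adjusted p = 0.0611). It did not pass the threshold, which it passed with the replicate number as a block. Of the 19 pathway genes called, DAPK2, LIMA1, CSRP1, SMTN, CAVIN1 and AFAP1 kept their call in each of the 6 fits on 5 libraries. SSH1 and CORO1C each kept theirs in 1 of these 6 fits, and FBLIM1 in 3. The number of pathway genes that rose was 13 without both replicate 3 libraries (1059 of all genes), and without siControl replicate 2 it was 2 and 4 fell (264 and 459 of all genes). With the replicate number as a block, 12 rose and 16 fell, all 19 among them, while over all genes tested the counts went from 1011 and 1181 to 1479 and 1754. ACTG1, MYH14, MRTFA and MRTFB were among the 9 gained.

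**Figure D5:**
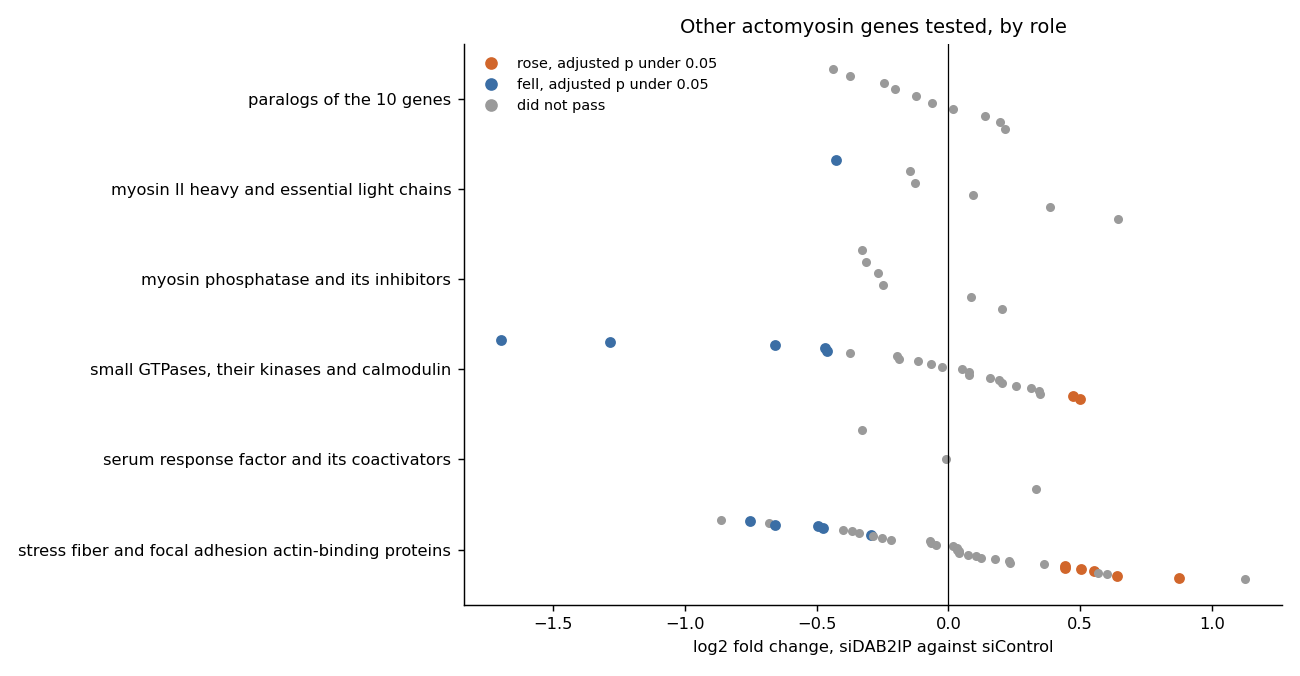
Log2 fold change (x axis) of the 85 pathway genes tested, by subgroup (y axis), 1 point a gene, orange for genes that rose, blue for genes that fell and gray for those that did not pass. The called genes lie on both sides of 0 in the small GTPase group (2 and 5) and in the stress fiber group (6 and 5).

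The cell type markers were read beside these values. All 6 basal mammary epithelial markers were above 3 counts in every library, with a summed level of 8681 to 10890 CPM in the siControl and 5258 to 6520 CPM in the siDAB2IP libraries, and 4 of them (KRT5, KRT14, KRT17 and KRT6A) fell. The summed level of the epithelial markers CDH1 and EPCAM was 338 to 405 and 279 to 424 CPM, and that of 7 luminal markers, 4 of them above 3 counts in every library, was 380 to 435 and 310 to 444 CPM. Of 7 smooth muscle markers, MYH11 and SMTN were above 3 counts in every library, SMTN rose, and LMOD1, MYOCD and ACTG2 had at most 3 counts in any library, MYOCD 0. Their summed level was 47.0 to 60.8 in the siControl and 76.4 to 107 CPM in the siDAB2IP libraries, nearly all of it SMTN. Of 8 fibroblast markers, 4 were above 3 counts in every library, and COL1A2 and COL3A1 had at most 3 counts. The sum of the 8 was 176 to 318 CPM in the siControl and 179 to 244 CPM in the siDAB2IP libraries. COL1A1 rose (log2 fold change 0.78), while FAP (0.72), DCN (−0.49) and PDGFRB (−0.61) did not pass the threshold. DCN made up most of the sum, at 201 ± 65.9 CPM in siControl and 143 ± 25.8 CPM in siDAB2IP cells (SD, n = 3). The endothelial markers summed to 23.7 to 34.0 and 15.8 to 17.3 CPM, of which KDR fell, and the immune markers to 0.939 to 2.06 and 0.665 to 1.51 CPM, with CD3E at 0. The part of the lower basal keratin level in the values of CALD1, MYLK and the others was not tested.

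For ACTA2 and TAGLN, 2 of the genes known as smooth muscle markers, the genes of most similar profile over the 6 libraries were sought. They were sought among the 14074 tested genes with a mean of at least 1 CPM. The measure was the root mean square difference of log2 CPM centered on each gene's mean. Nearest to ACTA2 were RN7SL689P (0.0824), PAXX (0.0827) and MMAA (0.0849), and nearest to TAGLN were KCNIP2 (0.0504), AC016586.1 (0.0686) and GSTZ1 (0.0751), in log2 units. RN7SL689P is a pseudogene of the 7SL RNA, and its near-identical copies could share its reads. None of these is one of the contractility genes. The points are the same 6 libraries for every gene, and this is a description only.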

How the data were processed

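Total RNA of MCF10A cells was made into 6 libraries and sequenced by Novogene (Illumina NovaSeq, paired-end reads). The submitters' processing notes name STAR 2.6.1d, featureCounts 1.5.0-p3, DESeq2 1.20.0, edgeR 3.24.3 and hg38, and do not say what each was used for. The strand setting of counting is not given in the sources used here. The authors deposited whole-number counts per gene and library, without normalization, and FPKM values, which are counts over gene length and a scaled library total. All 58735 genes have the positions of GENCODE release 29 (GRCh38).

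For testing, edgeR 4.0.16 in R 4.3.3 was run on the counts (filterByExpr with the groups, TMM, glmQLFit, glmQLFTest), all 6 libraries in 1 fit without covariates, with Benjamini-Hochberg adjustment over 15430 genes. Standard errors come from the quasi-likelihood F statistic. FPKM served to compare levels between genes, and for shares within paralog groups (two-sided exact permutation tests). Alternatives used DESeq2 1.42.0, other scalings and filters, a stricter threshold, a replicate block, limma 3.58.1 on FPKM with a pseudocount of 1 or 0.1 on the log2 scale, and 5 libraries at a time. Leaving out both replicate 3 libraries was chosen after seeing the data.

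After subtraction of group means, log2 CPM of libraries with the same replicate number correlated across genes at 0.26, 0.15 and 0.25, and of different numbers at −0.28 to 0.02. The subtraction makes the deviations within a group sum to 0, so positive values in some pairs bring negative ones in others. This contrast is therefore partly built in and does not by itself show that the libraries are paired. The numbers, which come from the labels, were taken to pair them.

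The 10 genes, the pathway, paralog and marker lists were chosen with earlier results of these data known. Named are all 10 genes, DAB2IP, the paralogs, the called genes of each other pathway subgroup (at most 6 in each direction), the 3 nearest profiles of ACTA2 and TAGLN, and genes overlapping a contractility gene at a mean of at least 1 CPM. Other pathway genes without a call, antisense genes under 1 CPM and single markers were named after their values were seen. A gene and a marker covered by these rules are counted but not reported by name here.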

Additional observations from a re-analysis of the deposited data

How the results depend on the processing

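Of 140 recomputed log2 fold changes of the contractility genes, 126 kept their direction and their side of the threshold, 7 lost a call, 3 gained one and 4 turned in sign. The log2 fold change of TAGLN was −0.36 to 0.064 when a library was left out (0.064 without siDAB2IP replicate 2). That of MYL9 was −0.60 to 0.22, with 0.22, 0.21 and 0.11 without siControl replicate 3, siDAB2IP replicate 1 or siDAB2IP replicate 2. The cause was not tested. Neither passed the threshold in any fit. MYL9 and MYLK were not among the genes of the limma fits that require a mean of 1 FPKM. CALD1 (−0.67, adjusted p = 0.0954) and MYLK (0.13, adjusted p = 0.218) lost their calls with limma on log2(FPKM + 1) without the filter on FPKM, a scale that shrinks changes of genes far below 1 FPKM such as MYLK. TPM1 passed with −0.44 without siDAB2IP replicate 3 and with −0.42 without both replicate 3 libraries, a fit in which ACTN1 also passed (0.30, adjusted p = 0.045 from edgeR).

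The number of contractility genes that rose was 0 with each of the 3 limma fits and with a threshold of 0.01, and 0 to 1 when a library was left out. The number that fell was 0 with limma without the FPKM filter and with a threshold of 0.01, 2 without both replicate 3 libraries, and 0 to 2 when a library was left out. Of the pathway genes, 0 rose and 3 fell with limma without the FPKM filter, 7 fell with limma on log2(FPKM + 0.1), and 13 rose without both replicate 3 libraries. When a library was left out, 2 to 10 rose and 4 to 13 fell, fewest without siControl replicate 2 for the genes that rose. Of all genes tested, 1011 rose and 1181 fell, against 176 and 202 with limma without the FPKM filter, 659 and 758 with limma on log2(FPKM + 0.1), and 264 to 1172 and 459 to 1352 when a library was left out.

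With the replicate block, the 2 contractility genes called remained called and no other was (CALD1 adjusted p = 0.0038, MYLK 0.0167, ACTA2 0.0724, all from edgeR). The pathway genes called went from 19 to 28, with all 19 kept, while those of all genes went from 1011 to 1479 that rose and from 1181 to 1754 that fell. The 19 genes kept their call in 228 of 304 alternative fits. No library held more than 96 counts of MYLK or 27 of MYL9, and how far depth or the spread between libraries sets their intervals was not tested.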
